A study of Mus musculus with 6 samples.

Results

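Mitochondria carry their own ribosome, which translates the few membrane subunits of the respiratory chain that the mitochondrial genome encodes. Its ribosomal RNAs come from that genome, whereas all of its proteins are encoded in the nucleus, translated on cytosolic ribosomes and imported. A small subunit reads the messenger RNA and a large subunit forms the peptide bonds, and tissues rich in mitochondria, such as heart muscle, depend on both. Genes for these proteins were taken as every gene of the deposited table whose symbol begins with Mrpl (large subunit) or Mrps (small subunit) followed by a digit. The rule gave 78 of the 14798 genes listed, 49 of the large and 29 of the small subunit.

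Scar tissue from the left ventricle of mice was sampled 6 weeks after the left anterior descending artery had been ligated at an age of 10 weeks, from donors labelled as 14 to 16 weeks old. The 3 control libraries came from Sox9 fl/fl mice, which carry floxed Sox9 alleles and no Cre. The 3 deletion libraries came from mice labelled Sox9 fl/perCre, in which the submitters describe the Cre as specific to fibroblasts. Which cells of the scar lost the gene was not measured in these data. Nothing in the labels tells whether replicate libraries are different animals. P-values therefore cover the spread between libraries, which may in part be technical. The tissue is whole scar, so fewer cells of a type and less RNA per cell cannot be told apart.

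Sox9 itself was at 71.1, 75.8 and 67.7 CPM (the count scaled to the library's total and TMM factor) in control replicates 1 to 3. Deletion replicates 1 to 3 were at 42.1, 51.7 and 55.8 CPM. The groups did not overlap, and controls lay wholly above in 8.59% of all genes tested. The log2 fold change of Sox9, deletion minus control, was -0.52 (edgeR adjusted p = 0.564), so Sox9 did not pass after adjustment. Library totals ran from 18538171 to 55523974 counts. Replicates 2 and 3 of both groups held only even counts, whereas replicate 1 of both did not, and in replicate 1 of both groups the ribosomal precursor Rn45s stood at 12175 and 22481 CPM, compared with 623 to 1004 CPM elsewhere. This split is treated as a batch below, although the labels name none. Control replicate 3 alone had a high level of the female-specific Xist transcript, at 812 CPM, compared with 0.844 to 7.61 CPM elsewhere. It is therefore not a technical repeat of another control, and sex is not balanced between the groups.

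All 78 mitochondrial ribosomal protein genes had a higher mean in Sox9-deletion scars than in control scars, and none passed the test. The median log2 fold change, deletion minus control, was 0.50 for the large subunit and 0.45 for the small subunit, against -0.017 for all genes tested. Single genes ran from 0.047 for Mrpl17 to 0.92 for Mrpl42. In this comparison 47.6% of all genes had a positive log2 fold change. No member passed an adjusted p of 0.05 in edgeR's quasi-likelihood test, where 0% of the 14771 genes tested did, and the lowest adjusted p of a member was 0.564. Unadjusted, 16 members had p below 0.05, all higher in deletion scars, or 20.5% of them, beside 5.30% of all genes that were higher at the same threshold; no member was lower at it, beside 3.04% of all genes. Of the 16 members, 12 belonged to the large and 4 to the small subunit. The 3 deletion libraries lay wholly above the 3 controls in 18 members, 12 large and 6 small, beside 8.87% of all genes, and in no member did the controls lie wholly above, beside 8.59%. DESeq2 called 0 members after adjustment, beside 0.352% of all genes, with 21 higher at an unadjusted p below 0.05, beside 7.40%.

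**Figure D1:**
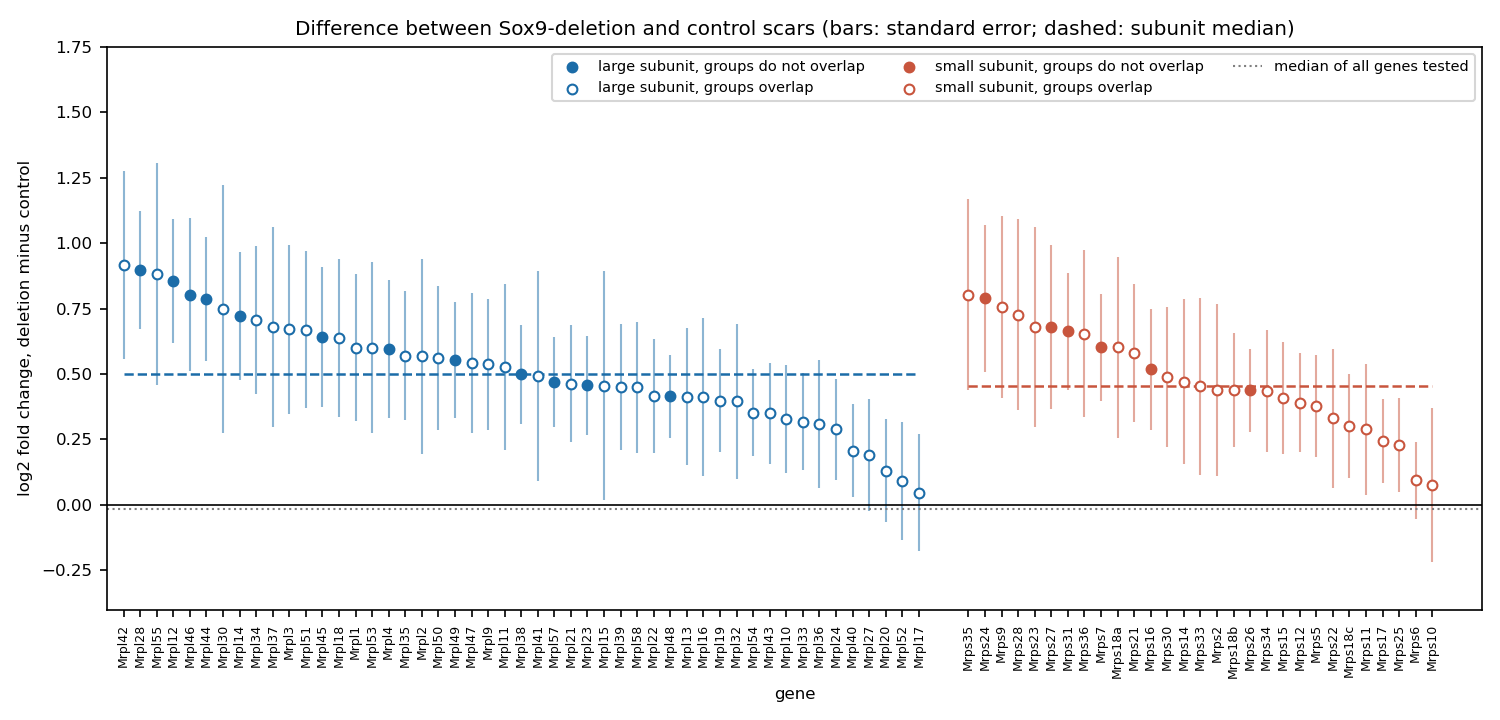
Log2 fold change (deletion minus control) of each of the 78 genes, ordered within the large and the small subunit, with standard errors as bars; filled points are genes whose 3 deletion libraries all lie above the 3 controls. Every point lies above 0, and the dashed medians, 0.50 and 0.45, lie close together and above the dotted median of all genes tested, -0.017.

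The genes together made up 0.2502%, 0.199% and 0.219% of all counts in the control replicates (in the order 1, 2, 3), compared with 0.361%, 0.269% and 0.241% in the deletion replicates. Deletion replicate 1 was the highest library and control replicate 2 the lowest, and control replicate 1 lay above deletion replicate 3. By gene, 74 of the 78 had their highest CPM in deletion replicate 1, 3 in control replicate 1 and 1 in deletion replicate 2. The lowest CPM was in control replicate 2 for 68 genes. When deletion replicate 1 was left out, the median log2 fold change was 0.24 for the large and 0.22 for the small subunit, and 71 of the 78 log2 fold changes were still positive. The count of members at an unadjusted p below 0.05 and higher in deletion scars was then 8, beside 2.72% of all genes. It was 3 without control replicate 2 (beside 1.45%), 5 without control replicate 3 (beside 1.89%) and 40 without deletion replicate 3 (beside 7.82%).

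**Figure D2:**
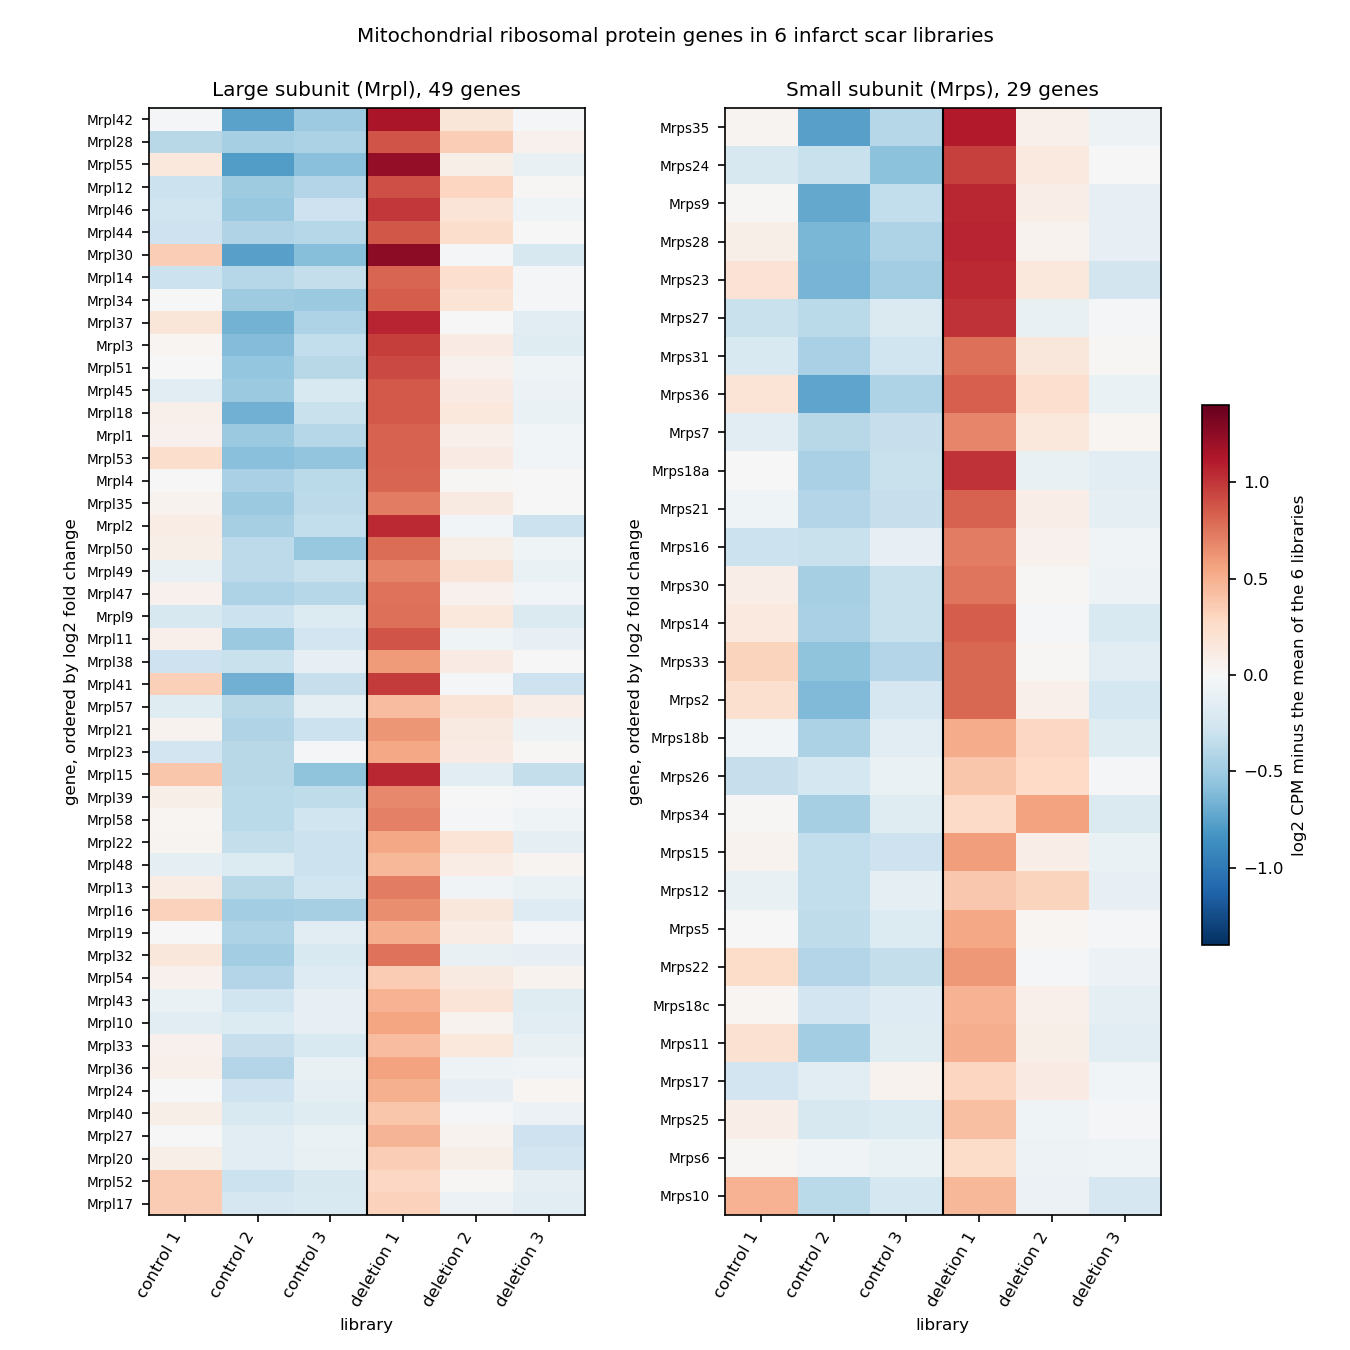
Log2 CPM of every gene in each of the 6 libraries, relative to that gene's mean over the libraries (red higher, blue lower), for symbols beginning Mrpl on the left and Mrps on the right. The column of deletion replicate 1 is red for nearly every gene, being the highest library for 74 of 78, and control replicate 2 is the lowest for 68.

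The difference was present within each batch. Between the replicate 1 pair the subunit medians were 0.69 and 0.65, with 75 members higher in the deletion library, and no test is possible there. In replicates 2 and 3 alone they were 0.36 and 0.31, with 76 members positive, and 39 members had an unadjusted p below 0.05 and a higher level in deletion scars, beside 9.51% of all genes. With a term for the batch, 61 members did, beside 13.8% of all genes, and still 0 passed after adjustment, beside 0.00677%. Mrpl42 had the smallest p of the members there (log2 fold change 0.85 ± 0.15 (SE), edgeR adjusted p = 0.0648). The authors' deposited normalized values gave another count: limma on their log2 scale called 33 members, all higher in deletion scars, beside 7.24% of all genes called higher and 10.7% called in either direction; at an unadjusted p below 0.05 it had 65 members higher, beside 16.1%. Those values are not proportional to the counts of the same library, so they hold a further correction whose kind is not given in the sources used here.

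Among large-subunit genes the smallest p-values belonged to Mrpl28, Mrpl12, Mrpl44 and Mrpl14. Mrpl28, the homologue of a bacterial large-subunit protein, was at 17.5, 16.6 and 16.8 CPM across the control libraries, compared with 42.1, 29.1 and 23.7 CPM in the deletion libraries. The controls were nearly level and every deletion library lay above them, so that the means were 16.9 ± 0.474 and 31.6 ± 9.47 CPM (SD, n = 3 libraries per group) and a log2 fold change of 0.90 ± 0.23 (SE, edgeR adjusted p = 0.564). Mrpl12, the protein of the ribosomal stalk that contacts translation factors and that also binds the mitochondrial RNA polymerase in human cells, was at 53.0, 46.5 and 49.1 CPM across the control libraries, compared with 122, 80.9 and 66.2 CPM in the deletion libraries. Again the groups did not overlap, and the log2 fold change was 0.85 ± 0.24 (SE, edgeR adjusted p = 0.564). Without deletion replicate 1 it was 0.56.

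Mrpl44, a large-subunit protein whose mutation in humans causes infantile cardiomyopathy, was at 17.1, 15.6 and 15.9 CPM against 38.3, 24.9 and 21.0 CPM. Mrpl14, which lies at the interface of the subunits, was at 7.07, 6.62 and 6.89 CPM against 15.3, 10.3 and 8.53 CPM. Neither gene overlapped between the groups, and their log2 fold changes were 0.79 ± 0.24 and 0.72 ± 0.24 (SE, edgeR adjusted p = 0.564 for both). Mrpl45, which anchors the ribosome to the inner mitochondrial membrane next to the exit of the nascent chain, was at 32.7, 25.3 and 31.5 CPM across the control libraries, compared with 66.0, 39.4 and 34.4 CPM in the deletion libraries, also without overlap. Its log2 fold change was 0.64 ± 0.27 (SE, edgeR adjusted p = 0.564).

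Mrpl42, a protein with no bacterial counterpart, had the highest level of the family per kilobase of transcript and the highest log2 fold change, 0.92 ± 0.36 (SE, edgeR adjusted p = 0.564). It was at 159, 95.6 and 113 CPM across the control libraries, compared with 355, 181 and 158 CPM in the deletion libraries. Here the groups overlapped, because control replicate 1 lay just above deletion replicate 3, and without deletion replicate 1 the value was 0.46. Mrpl30 and Mrpl18, both with bacterial homologues, overlapped more widely. Mrpl30 was at 74.7, 34.8 and 38.9 CPM against 140, 58.2 and 50.5 CPM, and its log2 fold change of 0.75 ± 0.47 (SE, edgeR adjusted p = 0.597) ran from 0.14 without deletion replicate 1 to 1.17 without control replicate 1. Mrpl18 was at 86.5, 51.8 and 66.4 CPM against 149, 91.7 and 77.5 CPM (log2 fold change 0.64, edgeR adjusted p = 0.564).

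At the other end of the large subunit, Mrpl17 and Mrpl52 were nearly level between the groups. Mrpl17 was at 39.5, 26.3 and 26.6 CPM across the control libraries, compared with 38.6, 29.02 and 27.6 CPM in the deletion libraries. In both groups replicate 1 was the highest library, and the log2 fold change was 0.047 ± 0.22 (SE, edgeR adjusted p = 0.946). Mrpl52 was at 25.1, 15.9 and 16.8 CPM against 23.9, 19.8 and 17.8 CPM (log2 fold change 0.092, edgeR adjusted p = 0.889). Both values turned negative without deletion replicate 1, without control replicate 2 and when libraries were scaled by their totals alone.

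**Figure D3:**
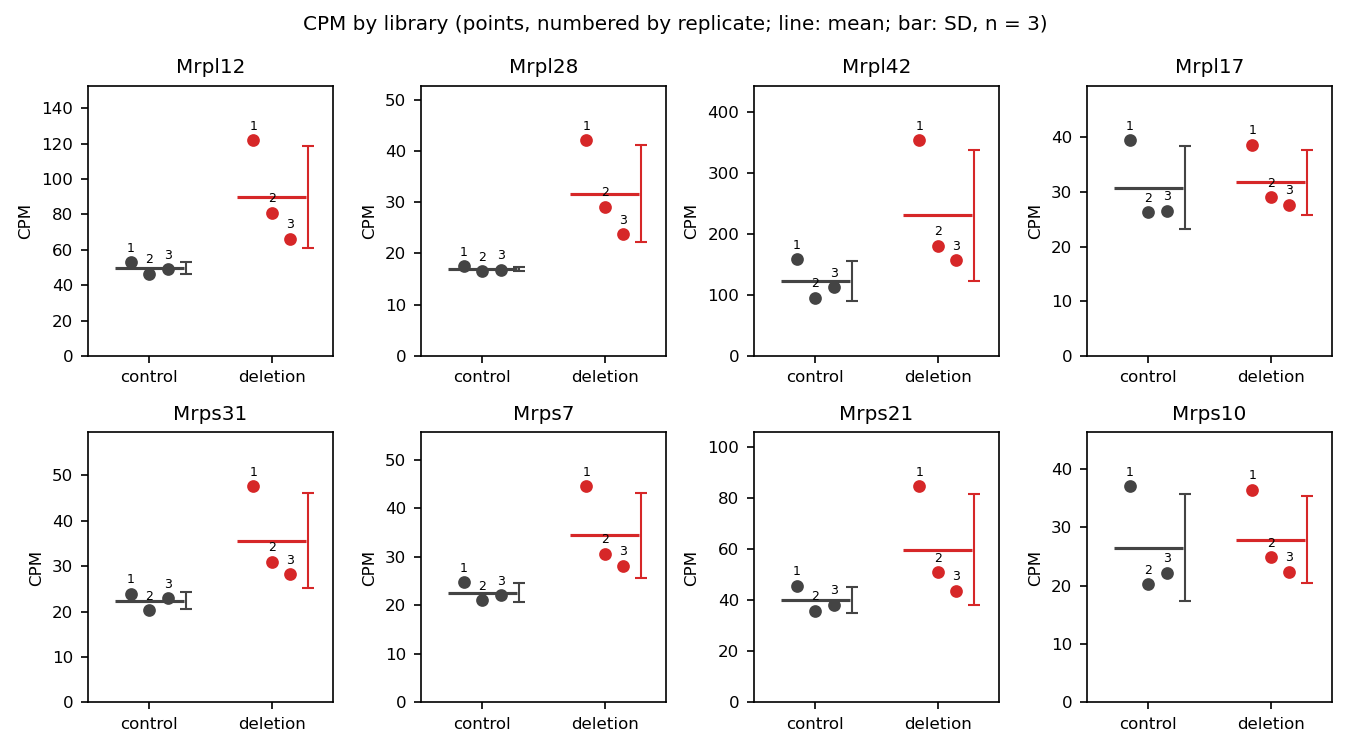
CPM in each library (points numbered by replicate) with the mean and SD of each group (n = 3) for 4 large-subunit genes in the upper row and 4 small-subunit genes in the lower row, each panel with an axis from 0. In Mrpl12, Mrpl28, Mrps31 and Mrps7 all deletion points lie above all control points, whereas in Mrpl17 and Mrps10 replicate 1 is the highest library of both groups.

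Small-subunit genes with the smallest p-values were Mrps31, Mrps7, Mrps24 and Mrps26. Mrps31, a protein found in mitochondrial but not in bacterial ribosomes, was at 24.0, 20.3 and 23.0 CPM across the control libraries, compared with 47.6, 30.9 and 28.2 CPM in the deletion libraries. Mrps7, whose bacterial homologue starts the folding of the head of the small subunit, was at 24.8, 21.0 and 22.1 CPM against 44.5, 30.6 and 28.2 CPM. The groups of both genes were separate, with log2 fold changes of 0.66 ± 0.22 and 0.60 ± 0.20 (SE, edgeR adjusted p = 0.564 for both). The same separation held for Mrps24, at 14.6, 13.7 and 11.4 CPM against 33.1, 18.7 and 17.1 CPM, and for Mrps26, at 16.6, 17.6 and 19.5 CPM against 27.2, 25.2 and 20.6 CPM. Mrps26 had the smaller log2 fold change, 0.44 ± 0.16 against 0.79 ± 0.28 (SE, edgeR adjusted p = 0.564 for both).

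The most abundant small-subunit symbols per kilobase were Mrps21, Mrps36, Mrps23 and Mrps15. Mrps21, with a bacterial homologue, was at 45.7, 35.9 and 38.3 CPM across the control libraries, compared with 84.6, 51.1 and 43.7 CPM in the deletion libraries (log2 fold change 0.58, edgeR adjusted p = 0.564), where control replicate 1 lay above deletion replicate 3. Mrps36 carries the family's name, but its product is a subunit of the 2-oxoglutarate dehydrogenase complex of the citrate cycle. It was at 59.99, 31.6 and 39.0 CPM against 94.0, 62.2 and 49.4 CPM (log2 fold change 0.65, edgeR adjusted p = 0.565). Mrps23 and Mrps15 overlapped between the groups too, with log2 fold changes of 0.68 ± 0.38 and 0.41 ± 0.22 (SE, edgeR adjusted p = 0.567 and 0.565). The lowest log2 fold changes were in Mrps10 and Mrps6. Mrps10 was at 36.9, 20.3 and 22.2 CPM against 36.4, 24.9 and 22.3 CPM (log2 fold change 0.075, edgeR adjusted p = 0.934). Mrps6 was at 24.98, 23.8 and 23.2 CPM against 29.7, 23.5 and 23.8 CPM (log2 fold change 0.094, edgeR adjusted p = 0.814), with a ratio of highest to lowest library of 1.28.

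Mammals have 3 paralogs of 1 bacterial small-subunit protein, and the paralogs sit at different places of the ribosome. Mrps18c was at 19.9, 16.2 and 17.2 CPM across the control libraries, compared with 27.4, 20.5 and 17.8 CPM in the deletion libraries, with a log2 fold change of 0.30 ± 0.20 (SE, edgeR adjusted p = 0.607). Mrps18b, at another site of the small subunit, was at 18.9, 14.3 and 17.5 CPM against 27.8, 23.6 and 17.2 CPM, with 0.44 ± 0.22 (SE, edgeR adjusted p = 0.565). Mrps18a, which despite its symbol is built into the large subunit, was at 23.1, 16.8 and 18.5 CPM against 46.6, 21.5 and 20.8 CPM, with 0.60 ± 0.34 (SE, edgeR adjusted p = 0.571). The groups overlapped in all 3 paralogs, and differences between the paralogs were not tested. Mrps30, the other large-subunit protein with a small-subunit symbol, was at 38.4, 26.1 and 29.1 CPM against 60.6, 36.6 and 34.3 CPM (log2 fold change 0.49, edgeR adjusted p = 0.565).

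The subunits had similar values, and their difference was described without a test. Their median log2 fold changes differed by 0.046, and by 0.060 when Mrps18a and Mrps30 were counted with the large subunit and Mrps36 was left out. Relative to the mean of the 6 libraries, the large-subunit mean of log2 CPM was 0.018, -0.43 and -0.31 in the controls, compared with 0.73, 0.082 and -0.088 in the deletion libraries. The small-subunit mean was 0.015, -0.43 and -0.26 in the controls and 0.69, 0.091 and -0.10 in the deletion scars. Large minus small was thus between -0.042, in control replicate 3, and 0.038, in deletion replicate 1, while either subunit alone spanned more than 1 unit over the same libraries. Levels per kilobase of transcript were also alike. The median of the mean CPM per kilobase was 25.6 for the large and 23.7 for the small subunit, beside 7.16 for all genes tested. The range was 4.36 (Mrpl19) to 269 (Mrpl42) in the large subunit and 10.3 (Mrps27) to 124 (Mrps21) in the small subunit. Means of log2 CPM per kilobase had the opposite order to the medians in every library. Large minus small was there between -0.15, in control replicate 3, and -0.067, in deletion replicate 1.

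Proteins inherited from the bacterial ancestor and proteins added in the mitochondrial lineage had similar values. The median log2 fold change was 0.46 for 29 large-subunit genes with a bacterial homologue and 0.53 for 20 without one. In the small subunit it was 0.44 for 18 genes with a homologue and 0.47 for 10 without, Mrps36 left out. Subunits were taken by symbol here, so Mrps18a is among the 18 and Mrps30 among the 10. At an unadjusted p below 0.05 were 5 of 29 and 7 of 20 large-subunit genes, and 2 of 18 and 2 of 10 small-subunit genes, beside 5.30% of all genes.

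Other genes of mitochondrial gene expression had log2 fold changes of the same size, and none passed after adjustment in edgeR. A mitoribosomal protein may also carry another symbol. The list held 4 such genes, without Ptcd3, which is given below with the assembly factors, and all 4 were higher in mean. Dap3, a GTP-binding protein of the small subunit, was at 51.2, 39.4 and 47.6 CPM across the control libraries. It was at 98.5, 59.9 and 55.0 CPM in the deletion libraries without overlap (log2 fold change 0.63, edgeR adjusted p = 0.564). Aurkaip1, another small-subunit protein, was at 79.4, 47.9 and 51.0 CPM against 96.8, 69.5 and 60.5 CPM with overlap (log2 fold change 0.35, edgeR adjusted p = 0.648). Among factors of ribosome assembly and ribosomal RNA modification, all 23 measured genes had positive values, with a median of 0.45, and 3 were higher at an unadjusted p below 0.05, beside 47.6% of all genes positive and 5.30% higher at that threshold. These 3, named after their values were seen, were Fastkd2, Mtg2 and Ptcd3. Ptcd3, a pentatricopeptide repeat protein that is also part of the small subunit, was at 104, 63.1 and 65.9 CPM against 202, 117 and 92.8 CPM (log2 fold change 0.82, edgeR adjusted p = 0.564), whereas the helicase gene Dhx30 was nearly level at 38.1, 31.7 and 33.9 CPM against 41.7, 31.6 and 35.1 CPM (log2 fold change 0.063, edgeR adjusted p = 0.891).

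Translation factors and their partners were positive in 14 of 15 genes, with a median of 0.55, and 2 were higher at an unadjusted p below 0.05, beside 5.30% of all genes. The elongation factor gene Gfm1 was at 181, 113 and 126 CPM across the control libraries, compared with 351, 197 and 174 CPM in the deletion libraries, overlapping between control replicate 1 and deletion replicate 3 (log2 fold change 0.78, edgeR adjusted p = 0.564). Lrpprc, which stabilises mitochondrial messenger RNAs, was at 115, 78.5 and 86.4 CPM against 218, 119 and 114 CPM (log2 fold change 0.69, edgeR adjusted p = 0.564). The exception was Mtfmt, the enzyme that formylates the initiator transfer RNA, at -0.0028. The 6 genes of mitochondrial transcription were all positive with a median of 0.43 and none at an unadjusted p below 0.05. Of these, the packaging and transcription factor Tfam was at 46.1, 34.6 and 33.6 CPM against 59.6, 45.9 and 37.8 CPM, and Tfb2m at 61.3, 40.6 and 37.1 CPM against 87.03, 52.8 and 52.9 CPM. All 17 mitochondrial aminoacyl-tRNA synthetases were positive, with a median of 0.45, 4 higher at an unadjusted p below 0.05 (beside 5.30% of all genes) and 8 with every deletion library above the controls (beside 8.87%). The synthetase gene Iars2 was at 115, 91.0 and 84.1 CPM against 152, 113 and 106 CPM (log2 fold change 0.35, edgeR adjusted p = 0.570).

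Ribosomal proteins of the cytosol had other values. Of 87 genes taken by the symbols of cytosolic ribosomal proteins, among them Rps19bp1, whose product is not a ribosomal protein, 31 had a positive log2 fold change, beside 47.6% of all genes. Their median was -0.038, and 1 was higher at an unadjusted p below 0.05, beside 5.30%. The mean of that list varied by library between -0.077 and 0.12, and the groups did not separate in it. Nuclear-encoded subunits of the respiratory chain had a median of 0.84, with 81 of 83 positive, beside 47.6% of all genes. Of these 83, 39 were higher at an unadjusted p below 0.05, beside 5.30%. Their library means, -0.012, -0.65 and -0.43 for the control libraries, 1.03, 0.13 and -0.067 for the deletion libraries, followed the order of the mitoribosomal means except that they lay wider apart. These genes come from the same libraries, so the orders are not independent.

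Cardiomyocyte markers had the library order of the mitoribosomal means, and fibroblast markers were also at their extreme in deletion replicate 1, as the lowest library. The summed level of 13 cardiomyocyte markers, all detected in every library, was 61061 to 96132 CPM across the control libraries, compared with 89101 to 170150 CPM in the deletion libraries, and their library means were 0.049, -0.65 and -0.52 against 0.96, 0.13 and 0.039. In that list 12 of 13 genes were positive, with a median log2 fold change of 0.88. The summed level of 10 fibroblast markers, also detected throughout, was 13228 to 15403 CPM across the control libraries, compared with 5658 to 14012 CPM in the deletion libraries. All 10 were negative, with a median of -0.41. Their library means were -0.043, 0.43 and 0.36 in the controls against -0.97, 0.15 and 0.069 in the deletion libraries. Without deletion replicate 1 the median difference in mean log2 CPM was -0.11. Of 6 macrophage markers, 6 were negative (median -0.55), and 6 endothelial markers were split evenly (median 0.022). The median was -0.33 for 6 smooth muscle and pericyte markers, -0.47 for 7 T and B cell markers and 0.12 for 3 Schwann cell markers. All 3 adipocyte markers were lower in mean in deletion scars, and Adipoq and Plin1 were at 0 in some library. Control replicate 1 stood far above the other controls in them. Across the controls Adipoq was at 16.2, 0.84 and 0.86 CPM, Plin1 at 4.62, 0.29 and 0.40 CPM and Cfd at 28.8, 1.90 and 0.99 CPM. The part of any of these cell types in the mitoribosomal difference was not tested.

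**Figure D4:**
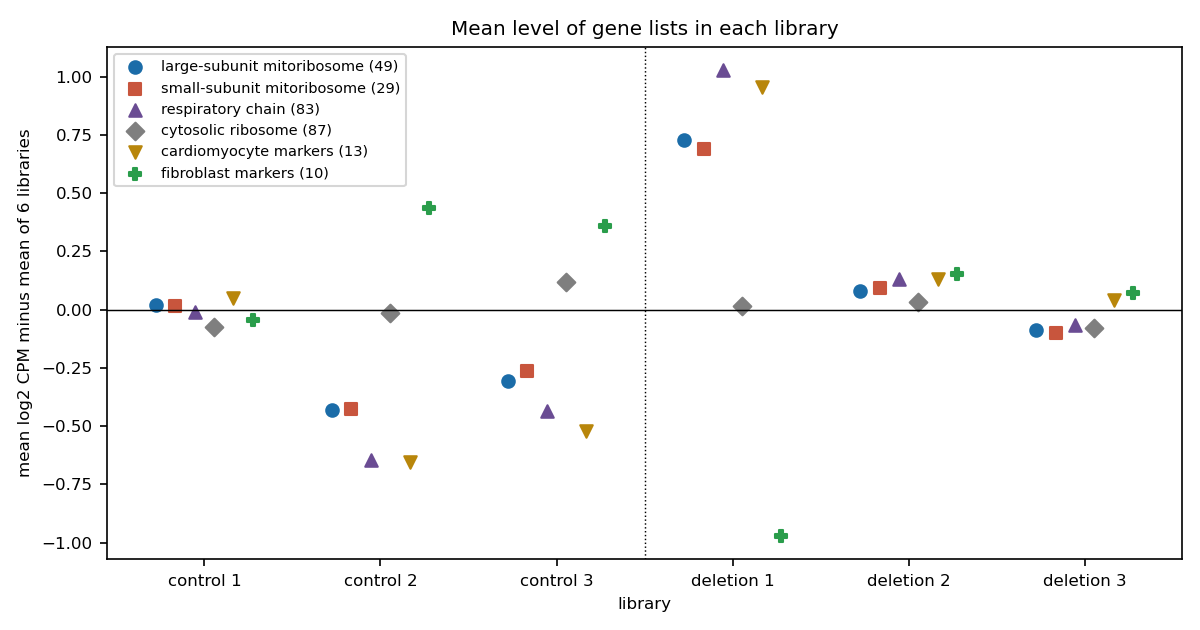
Mean log2 CPM of 6 gene lists in each library, relative to the mean of the 6 libraries, with the number of genes of each list in the legend. Both mitoribosomal lists lie together in every library and follow the respiratory chain and cardiomyocyte lists, all highest in deletion replicate 1 and lowest in control replicate 2, whereas the cytosolic ribosome list stays near 0 and the fibroblast list is lowest in deletion replicate 1.

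The promoters of 69 members present in the RefSeq table (build GRCm38.p6) were searched for short cores on both strands. The windows ran from 250 bases before to 50 after the start. CCGGAAG, the core bound by ETS family factors, was in 37.7% of the members, in 18.1% of the genes of the deposited table and in 9.93% of all genes with a window. ATGGCGG, the core of the YY1 motif, was in 18.8%, 8.59% and 4.69% of the same sets, and GCATGCG, the core of the motif of the nuclear respiratory factor NRF1, in 11.6%, 6.75% and 4.01%. AAGGTCA, a site of oestrogen-related receptors, was in 5.80%, 3.99% and 5.38%, and TATAAA in 7.25%, 9.53% and 15.7%. Members with the ETS core had a median log2 fold change of 0.45 and those without it 0.54. The large and small subunits held it in 15 of 43 and 11 of 26 genes. A match describes these letters only and does not show that a factor binds there. The stretches below run from 100 bases before to 30 bases after the start, 5′ to 3′ on the gene's strand, with matches to any of the 5 cores in capitals. They belong to the members of smallest p that hold an ETS, YY1 or NRF1 core in that stretch, up to 2 for each core.
Mrpl57 (chr14:57826139-57826268, plus strand): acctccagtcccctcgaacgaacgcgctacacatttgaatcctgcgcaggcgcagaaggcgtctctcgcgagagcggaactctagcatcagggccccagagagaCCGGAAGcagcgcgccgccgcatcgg
Mrps26 (chr2:130563657-130563786, plus strand): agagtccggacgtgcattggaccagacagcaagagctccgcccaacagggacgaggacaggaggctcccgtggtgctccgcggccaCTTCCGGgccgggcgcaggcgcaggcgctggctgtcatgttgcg
Mrps27 (chr13:99344686-99344815, plus strand): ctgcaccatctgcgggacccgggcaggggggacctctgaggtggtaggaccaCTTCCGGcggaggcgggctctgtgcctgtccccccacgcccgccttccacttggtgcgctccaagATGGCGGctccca
Mrpl9 (chr3:94443236-94443365, plus strand): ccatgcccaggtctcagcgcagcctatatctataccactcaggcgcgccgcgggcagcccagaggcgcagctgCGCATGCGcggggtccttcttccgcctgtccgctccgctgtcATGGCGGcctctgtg
Mrpl22 (chr11:58171564-58171693, plus strand): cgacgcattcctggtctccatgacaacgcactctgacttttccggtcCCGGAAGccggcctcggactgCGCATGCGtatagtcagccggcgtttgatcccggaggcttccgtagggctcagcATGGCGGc
The 3 matches to ATGGCGG lie downstream of the start, in Mrps27, Mrpl9 and Mrpl22, and Mrpl22 holds all 3 kinds of core. In the capitals CGCATGCG, the NRF1 core matches on both strands with an overlap of 6 bases.

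Head-to-head neighbours were frequent. Such pairs were counted in the GENCODE vM21 annotation only where the genes do not overlap at their starts. Mrpl46 and Mrps11, on opposite strands with 173 shared exonic bases, were not counted as such a pair. By this rule 18 of the 78 members, or 23.1%, start within 1000 bases of a protein-coding gene that runs the other way. The share was 9.35% among the protein-coding genes of the deposited table. Of the 17 such partners in the table, Sars2 (0.53), Ptcd2 (0.64) and Cyb5rl (0.75) had log2 fold changes close to those of Mrps12 (0.39), Mrps27 (0.68) and Mrpl37 (0.68). Some others did not: Mitd1, whose start is 66 bases from that of Mrpl30, was at -0.30 against 0.75. Fau, 59 bases from Mrpl49, was at -0.0033 against 0.55. Those 5 pairs were chosen after their values were seen, and no partner passed after adjustment in edgeR. The remaining partners were not sorted into close or distant, among them Apba3 (0.48), the partner of Mrpl54 (0.35). The pair of Mrps12 and Sars2 joins a ribosomal protein with the mitochondrial seryl-tRNA synthetase. Mrps12 was at 9.96, 8.45 and 9.77 CPM across the control libraries, compared with 13.9, 13.2 and 9.86 CPM in the deletion libraries, and the groups overlapped because control replicate 1 lay above deletion replicate 3. Between their RefSeq starts lie 146 bases, and the interval with 30 bases of either transcript, on the strand of Mrps12, holds the ETS core just inside the Mrps12 transcript (capitals).
Mrps12-Sars2 (chr7:28741792-28741997, minus strand, GRCm38.p6): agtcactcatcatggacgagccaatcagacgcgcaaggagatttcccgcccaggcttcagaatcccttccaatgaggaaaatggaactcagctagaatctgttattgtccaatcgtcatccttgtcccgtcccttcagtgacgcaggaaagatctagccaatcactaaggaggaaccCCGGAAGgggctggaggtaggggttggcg

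The members lie on 17 chromosomes, and 33 of them share exonic bases with another GENCODE gene, 28 with a gene on the opposite strand and 8 with one on the same strand. Whether the counting used strand is not given in the sources used here. Reads of such genes may therefore be shared. The longest overlap among the members was in Mrps25, of whose 6576 exonic bases 4590 overlap Nr2c2 on the opposite strand. Among the members whose libraries are given above, the overlap on the opposite strand was 638 bases in Mrps18b (Gm16279), 623 in Mrps30 (B430218F22Rik), 200 in Mrpl12 (Gm16755), 141 in Mrpl18 (Tcp1), 127 and 119 in Mrps7 (Gga3 and Mif4gd), 126 in Mrpl44 (Wdfy1), 106 in Mrpl14 (Tmem63b) and 8 in Mrps26 (4930473A02Rik). On the same strand it was 305 and 159 bases in Mrps6 (Gm49711 and Slc5a3), 250 in Mrps18c (Gm43511) and 226 in Mrps24 (Urgcp). Mrpl42 and Mrpl28 share none.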

How the data were processed

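The ScriptSeq v2 kit was used on 100 ng of total RNA, per the labels' protocols. Raw read counts per gene were deposited by the authors in a table of 14798 genes, in which the lowest mean count over the libraries was 7. Trim Galore, STAR, deepTools (tools) and mm10 (genome build) are listed, with no role or version, per the submitters' processing notes. The table also holds normalized signal values of the authors (TMM, per the file headers) and the length of 1 RefSeq transcript per gene.

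The test was edgeR's quasi-likelihood F test (edgeR 4.0.16, R 4.3.3; filterByExpr, TMM factors, robust fit, prior count 2, genotype as the only term), with Benjamini-Hochberg adjustment over the 14771 genes tested and a threshold of 0.05. The fit had 4 residual degrees of freedom. All 78 members passed the filter, and their lowest count in any library was 127. CPM values are TMM-scaled; log2 fold changes give deletion over control, and their SE was taken from the F statistic. No exact permutation test was used, since 3 libraries a group allow no p below 0.1. DESeq2 1.42.0 and limma 3.58.1 (pseudocount of 1) were alternatives. The edgeR step was run on simulated counts with no batch, 1 fixed dispersion and fold changes larger than that of any member. That run checks the code and does not measure how the test performs on these libraries. The members, lists and roles were chosen with earlier results of these data known. Genes named were Sox9, the 4 with the highest CPM per kilobase, the 4 with the smallest p and the 2 with the lowest log2 fold change of each subunit, Mrpl12, Mrpl44, Mrpl45, Mrps30 and the Mrps18 paralogs, and the 2 most abundant genes of each mitochondrial list; others were named after their values were seen.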

Additional observations from a re-analysis of the deposited data

How the results depend on the processing

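Of 17 alternatives, 1 only regrouped the subunits and gave no value for single genes. Over the others, 20 of 24 named members kept a positive log2 fold change. The count of members past an adjusted p of 0.05 was 0 in the edgeR test and in every alternative with a test except limma on the deposited normalized values, where it was 33. The count at an unadjusted p below 0.05 and higher in deletion scars was 16; it was 65 in that limma test, 61 with the batch term, 39 in replicates 2 and 3 alone, 50 with replicate number as a block (beside 10.9% of all genes), and 3 to 40 when 1 library was left out. The labels do not say whether the numbers pair the libraries. Same-numbered libraries deviated from their group means with correlations of 0.48, 0.013 and 0.18. Control replicates 2 and 3 each correlated better with the other number. Deviations within a group sum to 0, so these correlations depend on each other and cannot settle the pairing. The cause of the shifts in the counts was not tested. Leaving out 1 library gave medians of 0.24 to 0.70 for the large subunit, 0.22 to 0.66 for the small subunit and 0.014 to 0.067 for their difference. Scaling by library totals alone shifted the median of all genes from -0.017 to -0.15, left 73 of 78 members positive, and turned Mrpl17 (-0.093), Mrpl52 (-0.042), Mrps10 (-0.066) and Mrps6 (-0.053) negative. Mrps6 was also negative in replicates 2 and 3 alone (-0.0080). When 1 library was left out, Mrpl17 ran from -0.12 to 0.26, Mrpl52 from -0.037 to 0.33, Mrps10 from -0.17 to 0.39 and Mrps6 from -0.031 to 0.15. No member passed after adjustment in edgeR with 3 libraries a group, beside 0% of all genes. The SD of Mrpl42 in the deletion libraries was 108 CPM, at a mean of 231 CPM.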

Other observations

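The mitochondrial leucyl-tRNA synthetase gene Lars2 was at 560 and 962 CPM in replicate 1 of the control and deletion groups and at 32.03 to 51.2 CPM in the other 4 libraries, the same split of libraries as for Rn45s. Its log2 fold change was 0.75 ± 1.53 (SE, edgeR adjusted p = 0.864), and it is the member of its list with the highest level. The gene with the highest log2 fold change among cytosolic ribosomal proteins was Rpl3l, a paralog of Rpl3 expressed in heart and skeletal muscle, at 36.7, 10.97 and 33.3 CPM across the control libraries, compared with 282, 85.1 and 60.7 CPM in the deletion libraries (log2 fold change 2.40 ± 0.71 (SE), edgeR adjusted p = 0.564). Its groups did not overlap, whereas Rpl3 had the lowest value of that list, -0.47. Rpl3l and Rpl3 were named after their values were seen.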
